A study of Homo sapiens with 2 samples.

Results

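The bright microRNA genes of SNK6 cells are the 124 named microRNA genes, of 1072 on the array and 14884 named genes in all, whose probe signal was highest after romidepsin treatment. SNK6 is a human lymphoma line of NK/T cell type that carries Epstein-Barr virus, and every value comes from this 1 line. A gene was taken when its symbol in the platform annotation started with MIR and a digit, or with MIRLET, and did not end in HG, the suffix of a microRNA host transcript. The genes were then chosen by measured signal: the brightest probe set of each gene had to average at least 5.55 on the log2 scale over both arrays. Signals and their ranks below are therefore a description, and the difference between the arrays was not used in the choice. All 124 genes are classed as microRNA genes in the RefSeq gene table.

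One culture was grown with romidepsin plus sildenafil for 72 h (1 array, the combination array), the other with romidepsin alone for 72 h (1 array, the romidepsin array). Romidepsin inhibits class I histone deacetylases and sildenafil inhibits a phosphodiesterase that breaks down cyclic GMP. Both cultures received interleukin-2, on which this line is kept. The labels state no dose. Cells without drug or with sildenafil alone were not analysed here. The comparison asks how transcript levels differ when sildenafil joins romidepsin. With 1 array per condition no difference could be tested, no value has a replicate error, and culture, array and treatment cannot be told apart. In RNA from a whole culture, fewer cells of a type and less RNA per cell cannot be told apart either.

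A microRNA starts as a hairpin in a longer transcript, often an intron of another gene or a non-coding RNA that carries several hairpins. The nuclear enzyme DROSHA with DGCR8 releases the hairpin, XPO5 exports it, and DICER1 cuts it to a short duplex of which 1 strand is loaded onto an Argonaute protein. The loaded strand pairs with messenger RNAs mainly through its seed, bases 2 to 8, and lowers their translation and stability. In lymphocytes, miR-155, miR-21, the miR-181 family and miR-142 are among the best known. The array read amplified total RNA, so a signal at a microRNA gene can come from the hairpin, its longer precursor or any transcript that spans it, and does not measure the mature microRNA.

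Mature sequences of the genes on which the results turn are printed with the seed in capitals, from RefSeq (GRCh38.p14). The 2 seeds shared by most genes of the group come first, because such genes are compared with each other in the results. A seed common to 3 genes was found in the miR-181 genes and MIR4262, and another in the miR-3689 genes.
hsa-miR-181b-5p: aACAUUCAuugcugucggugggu
hsa-miR-181d-5p: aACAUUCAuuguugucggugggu
hsa-miR-4262: gACAUUCAgacuaccug
hsa-miR-3689f: uGUGAUAUcgugcuuccuggga
hsa-miR-3689a-5p: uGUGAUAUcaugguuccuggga
hsa-miR-3689b-5p: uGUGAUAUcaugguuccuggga

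Of the 6 further shared seeds, 1 joined MIR3689A and MIR3689B through their 3p strands and the other 5 joined genes of different names. Among those, MIR21 and MIR590 are the pair whose differences between the arrays were the most unequal.
hsa-miR-21-5p: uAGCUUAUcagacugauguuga
hsa-miR-590-5p: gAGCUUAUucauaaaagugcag
hsa-miR-130b-3p: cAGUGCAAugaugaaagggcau
hsa-miR-4295: cAGUGCAAuguuuuccuu
hsa-miR-25-3p: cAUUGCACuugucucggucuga
hsa-miR-92b-3p: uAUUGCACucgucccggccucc
hsa-miR-5047: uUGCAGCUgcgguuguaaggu
hsa-miR-1301-3p: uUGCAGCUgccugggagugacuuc
hsa-miR-3916: aAGAGGAAgaaauggcugguucucag
hsa-miR-3125: uAGAGGAAgcuguggagaga

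The genes whose arrays lay at least 1.5-fold apart are shown next, those higher with sildenafil first, followed by the genes of highest signal. MIR548H2 was also 1.5-fold apart, and MIR3143 was also among the brightest.
hsa-miR-3159: uAGGAUUAcaagugucggccac
hsa-miR-1281: uCGCCUCCuccucuccc
hsa-miR-4518: gCUCAGGGaugauaacugugcugaga
hsa-miR-4489: uGGGGCUAgugaugcaggacg
hsa-miR-891a-5p: uGCAACGAaccugagccacuga
hsa-miR-1299: uUCUGGAAuucugugugaggga
hsa-miR-548al: aACGGCAAugacuuuuguacca
hsa-miR-570-3p: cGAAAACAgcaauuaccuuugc
hsa-miR-4737: aUGCGAGGaugcugacagug
hsa-miR-155-5p: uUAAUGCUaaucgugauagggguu
hsa-miR-574-3p: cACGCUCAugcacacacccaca
hsa-miR-4442: gCCGGACAagagggagg
hsa-miR-4521: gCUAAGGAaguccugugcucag
hsa-miR-4732-3p: gCCCUGACcuguccuguucug
hsa-miR-4525: gGGGGGAUgugcaugcugguu

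The whole table held log2 signals of 53617 probe sets, with a median of 3.92 on the combination array and 3.89 on the romidepsin array. Of 10 named NK markers, 5 reached 5.55 and 5 did not. The brightest was PRF1, the gene of the pore-forming protein perforin, with 8.81 on the combination array and 8.83 on the romidepsin array. Of those below 5.55, NCR2 averaged 4.98, TBX21 4.85, NCR3 4.69, GNLY 3.87 and EOMES 3.06. The 3 named T cell markers and the 1 named B cell marker lay below 5.55. Of 4 named monocyte and macrophage markers only CD68 reached it, and LYZ averaged 2.20. Markers that no probe set names are not analysed here.

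Most bright microRNA genes lay close together on the 2 arrays, and the group as a whole leaned slightly higher with sildenafil. Median signals were 6.25 on the combination array and 6.20 on the romidepsin array, with ranges of 5.42 to 10.13 and 5.32 to 9.87. The median difference, combination minus romidepsin, was 0.11 on the log2 scale, with 81 genes above 0 and 43 below. The central 95% of the differences ran from -0.71 to 0.59, and 75 of the 124 genes lay within 0.25 of 0.

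A difference of 1.5-fold between the arrays served as a rule of size, since no test was possible. By it 4 bright microRNA genes were higher with sildenafil (3.23%) and 6 were lower (4.84%), and 114 lay within 1.5-fold. Among all 5503 named genes with a mean signal of at least 5.55, 0.164% were higher and 0.382% lower by the same rule. Among the 7524 probe sets of that signal without a gene name, counted per probe set, 1.38% were higher and 4.23% lower. After quantile normalization of the 2 arrays, 7 bright microRNA genes were higher and 4 lower.

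**Figure D1:**
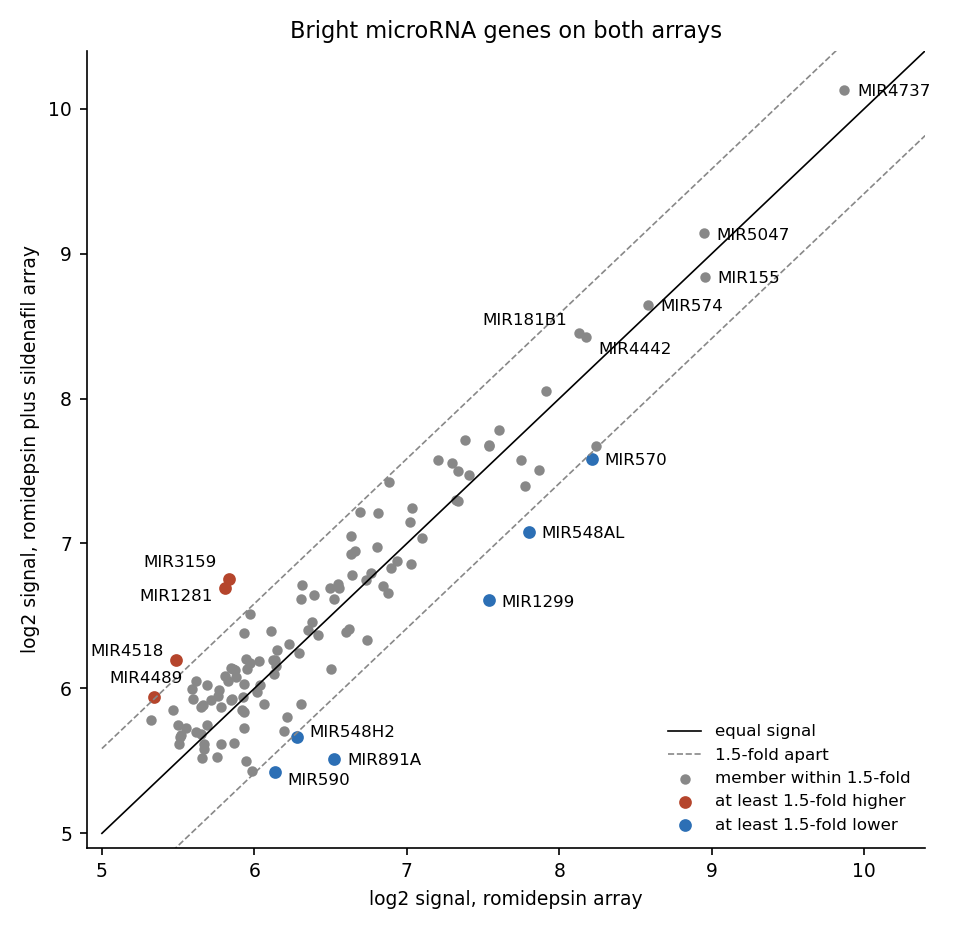
Log2 signal of each of the 124 bright microRNA genes on the combination array (vertical axis) against the romidepsin array (horizontal axis), with dashed lines at a 1.5-fold difference. The 4 genes above the upper line are MIR3159, MIR1281, MIR4518 and MIR4489, and 6 genes lie below the lower line.

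The other named genes of comparable signal were more tightly grouped around 0. The 5379 other named genes at 5.55 or above had a median difference of -0.03 and an SD over genes of 0.15, whereas the 124 bright microRNA genes had an SD of 0.33. The 7524 unnamed probe sets of that signal had an SD of 0.28, so a wide spread was not particular to microRNA genes. The median of the other genes was 0.02 after quantile normalization and 0.01 after lowess centring, so its sign depends on the scaling, while that of the bright microRNA genes was 0.15 and 0.13 under the same scalings. The dimmer microRNA genes spread as widely as the bright ones: over 948 genes below 5.55 the median was 0.05 and the SD 0.36, with 42 genes higher (4.43%) and 51 lower (5.38%).

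The wider spread was found in both ranges of signal. Between 5.55 and 7, the 95 bright microRNA genes had an SD of 0.31, with 7.37% of them 1.5-fold apart, and the 2867 other named genes had an SD of 0.17, with 0.523% apart. At 7 and above, 3 of 29 bright microRNA genes (10.3%) and 5 of 2512 other named genes (0.199%) were 1.5-fold apart.

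**Figure D2:**
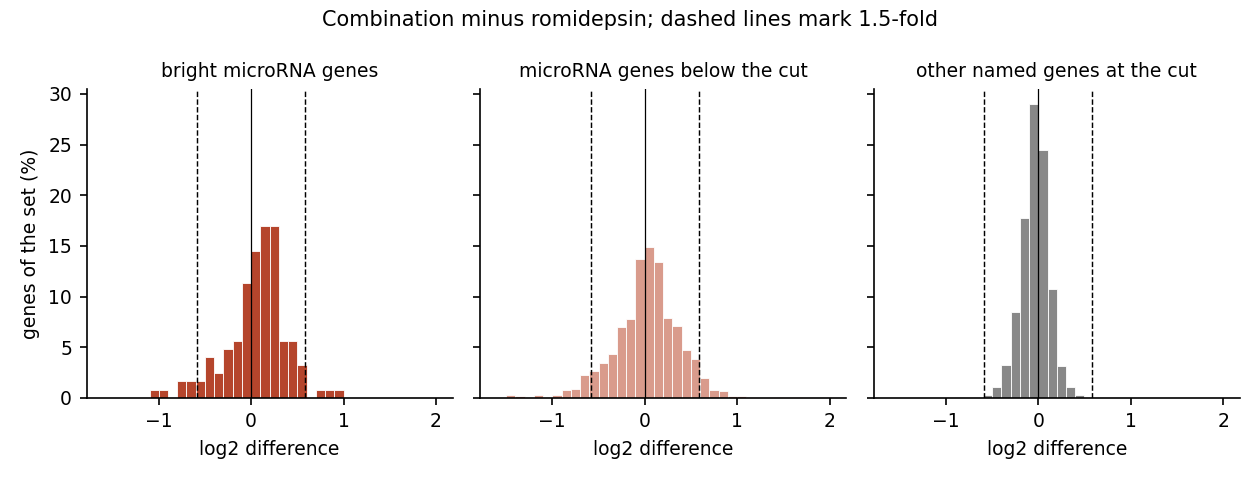
Distribution of the log2 difference, combination minus romidepsin, as the share of genes in each bin for the 124 bright microRNA genes, the 948 microRNA genes below 5.55 and the 5379 other named genes at or above it. The microRNA genes spread more widely (SD 0.33 and 0.36) than the other genes (SD 0.15), and dashed lines mark 1.5-fold.

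The 4 genes higher with sildenafil were of moderate signal. MIR3159, on chromosome 11, had a log2 signal of 6.75 on the combination array and 5.84 on the romidepsin array, which is 1.89-fold higher. MIR1281, on chromosome 22, had 6.69 on the combination array and 5.81 on the romidepsin array, 1.84-fold higher. These were the 2 largest positive differences in the group.

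MIR4518, on chromosome 16, gave 6.20 on the combination array and 5.49 on the romidepsin array, 1.64-fold higher. It is the only one of the 10 genes with a further probe set of other values, and that probe set leaned the same way, at 4.32 on the combination array and 3.68 on the romidepsin array. MIR4489, on chromosome 11, gave 5.94 on the combination array and 5.34 on the romidepsin array, 1.51-fold higher and the closest of the 10 to the limit. MIR4518 and MIR4489 had a romidepsin signal below 5.55, so they entered the group through the combination array.

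The 6 genes lower with sildenafil were led by MIR891A and MIR1299. MIR891A, an X-linked microRNA gene best known from the epididymis, had 5.52 on the combination array and 6.53 on the romidepsin array, a difference of -1.01. It was the only bright microRNA gene beyond 2-fold, and no bright microRNA gene was 2-fold higher. MIR1299, on chromosome 9, had 6.61 on the combination array and 7.54 on the romidepsin array, 1.91-fold lower.

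The next pair belongs to the miR-548 family, whose many copies derive from a small transposable element. MIR548AL, on chromosome 11, had 7.08 on the combination array and 7.80 on the romidepsin array, 1.65-fold lower. MIR548H2, on chromosome 16, had 5.67 on the combination array and 6.28 on the romidepsin array, 1.53-fold lower. These were the only bright genes of the family, and both were lower by the rule of size.

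MIR590, which lies within the translation factor gene EIF4H on chromosome 7, had 5.42 on the combination array and 6.14 on the romidepsin array, 1.64-fold lower. MIR570, on chromosome 3, had 7.59 on the combination array and 8.21 on the romidepsin array, 1.55-fold lower, and was the brightest of the 10. MIR891A and MIR590 were below 5.55 on the combination array and entered the group through the romidepsin array. Just short of the limit were MIR4521, with 7.67 on the combination array and 8.24 on the romidepsin array (-0.57), and MIR3198-1, with 5.43 and 5.98 (-0.55).

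The limit of the group itself ran through genes of nearly equal signal. Just inside lay MIR3934, MIR339 and MIR2392, with means of 5.59, 5.56 and 5.55. Just outside lay MIR4730, MIR26B and MIR2467, with means of 5.54, 5.54 and 5.53. Of the 124 genes, 109 reached 5.55 on both arrays, and among these 2 were 1.5-fold higher and 4 lower.

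The brightest probe sets lay on both sides of 0. MIR4737, on chromosome 17, had 10.13 on the combination array and 9.87 on the romidepsin array. MIR5047, within the RNA helicase gene DDX5, had 9.14 on the combination array and 8.95 on the romidepsin array. MIR155, whose microRNA promotes lymphocyte activation and is abundant in many lymphomas, had 8.84 on the combination array and 8.95 on the romidepsin array, a difference of -0.11. A brighter probe set is not thereby a more abundant RNA, since probe sets differ in their response.

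MIR574, MIR4442, MIR181B1, MIR3143, MIR4732 and MIR4525 had differences from -0.17 (MIR4525) to 0.32 (MIR181B1). MIR181B1 gave 8.45 on the combination array and 8.13 on the romidepsin array. MIR130B gave 7.51 on the combination array and 7.87 on the romidepsin array. Of the 12 brightest genes 7 were higher on the combination array and 5 lower, and only MIR570 passed 1.5-fold.

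**Figure D3:**
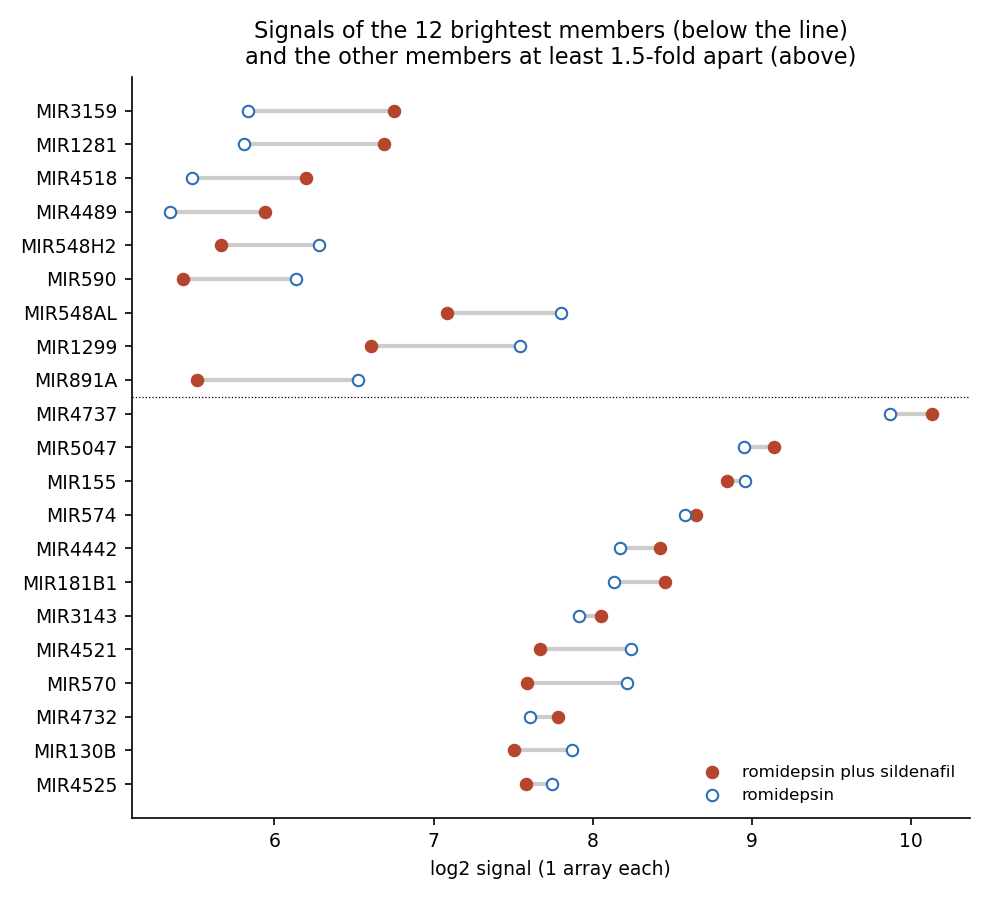
Log2 signal of the 12 brightest microRNA genes (below the dotted line) and of the other 9 genes at least 1.5-fold apart (above it), filled for the combination array and open for the romidepsin array. MIR891A shows the widest gap (5.52 on the combination array, 6.53 on the romidepsin array), and MIR574 and MIR155 show gaps of 0.07 and -0.11.

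Among microRNAs known from lymphoid cells, the bright genes differed little between the arrays. A list of 32 such genes had 28 named on the array, and 4 of them were bright: MIR155, MIR21, MIR221 and MIR142. MIR21, whose microRNA is widely raised in tumours, had 7.04 on the combination array and 7.10 on the romidepsin array. MIR142, a microRNA gene restricted to blood cells, had 6.19 on the combination array and 6.03 on the romidepsin array.

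MIR221, whose microRNA targets the cell-cycle inhibitor CDKN1B, had 6.39 on the combination array and 6.60 on the romidepsin array. None of the 4 bright lymphoid genes reached 1.5-fold. Over all 124 bright microRNA genes 8.06% did, so a lack of such genes among 4 is near that share. Of the 24 dimmer ones, MIR181A2 was higher, with 3.11 on the combination array and 2.37 on the romidepsin array. MIR29A was lower, with 4.20 on the combination array and 5.30 on the romidepsin array, and so was MIR16-2, with 4.90 and 5.65. Over all 948 microRNA genes below 5.55, 4.43% were higher and 5.38% lower, so these counts are near that share. The median difference over the 28 genes was 0.02. It was 0.05 over all microRNA genes below 5.55, 0.11 over the bright ones and 0.00 over all named genes of the table. The genes of the miR-17-92 cluster are not analysed here.

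Compared by name, 4 families had at least 2 bright genes, and in the miR-3689 family every named gene leaned one way. Its 4 bright genes were all higher on the combination array: MIR3689F had 7.22 on the combination array and 6.70 on the romidepsin array (0.53), and MIR3689A had 6.72 and 6.55 (0.17). MIR3689D1 had 6.70 on the combination array and 6.50 on the romidepsin array (0.20), and MIR3689B had 5.73 and 5.549 (0.18). MIR3689B was thus just below 5.55 on the romidepsin array and entered the group through the combination array, where it is higher. None reached 1.5-fold. The dimmer relatives MIR3689D2 and MIR3689E lay at 0.36 and 0.12, and all 6 genes lie in 1 cluster on chromosome 9.

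The mature 5p strands of MIR3689A and MIR3689B printed above are the same, so probe sets of this family may share signal and are not taken as independent. A further probe set of MIR3689F, with 6.43 on the combination array and 6.38 on the romidepsin array, lay at 0.04. The mean of all its probe sets placed MIR3689F at 0.28. By their brightest probe sets, the 3 genes with the seed GUGAUAU were all higher on the combination array, by 0.17 to 0.53. Of these, MIR3689B entered the group through that array.

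The miR-181 family, whose microRNAs tune antigen receptor signalling in developing lymphocytes, had 2 bright genes that did not lean alike. MIR181B1 lay at 0.32, and MIR181D at -0.07, with 5.85 on the combination array and 5.92 on the romidepsin array. The 4 dimmer genes were all above 0, from 0.06 for MIR181A1 to 0.74 for MIR181A2. MIR4262, a gene of another name with the same seed, lay at 0.06.

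In the miR-378 family the 2 bright genes went opposite ways. MIR378E had 5.89 on the combination array and 6.31 on the romidepsin array (-0.42), and MIR378I had 6.05 and 5.82 (0.23). The 6 dimmer genes ran from -0.50 for MIR378A to 0.25 for MIR378C.

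In the miR-548 family the bright genes differed from the list as a whole. Its 2 bright genes lay at -0.72 and -0.62, whereas all 40 named genes had a median of 0.08, with 21 above 0 and 19 below, 3 at least 1.5-fold higher and 6 lower. Of the 40 genes 38 were below 5.55, where 4.43% of all microRNA genes were higher and 5.38% lower. Among the dimmer genes, MIR548L lay at -0.24, MIR548AN at -0.42 and MIR548T at 0.18.

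Genes with a common seed but different names included pairs of like and of opposite sign. Of 154 mature sequences known for 111 of the bright genes there were 144 different seeds, and 8 seeds were shared by at least 2 genes. MIR21 and MIR590 share AGCUUAU, and their differences were -0.06 and -0.71. MIR130B and MIR4295 share AGUGCAA and lay at -0.36 and -0.17, both on the lower side. A further probe set of MIR130B lay at 0.06, and the mean of its probe sets at -0.15.

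MIR25, whose microRNA represses the pro-apoptotic gene BCL2L11, lay at -0.22 and MIR92B, with the same seed AUUGCAC, at 0.26. MIR5047 and MIR1301 share UGCAGCU and lay at 0.19 and -0.14. The medians of these last 2 pairs were near 0 (0.02 each) and below 0 after median centring (-0.01 and -0.00). MIR3916 and MIR3125 share AGAGGAA and lay at 0.33 and 0.06.

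Within genomic clusters, defined as microRNA genes no more than 10 kb from the next by their RefSeq positions (GRCh38.p14), on either strand, usually 1 gene was bright. There were 18 clusters with a bright gene and another named microRNA gene, which held 21 bright and 77 dimmer genes, while 103 bright genes stood alone. Only the miR-3689 cluster had more than 1 bright gene. In 11 of the 18 clusters the genes differed in the sign of the difference.

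The miR-106b-25 cluster lies in an intron of the DNA replication gene MCM7. Its bright gene MIR25 had 6.66 on the combination array and 6.87 on the romidepsin array. MIR106B had 5.58 on the combination array and 5.39 on the romidepsin array (0.19), and MIR93 had 4.69 and 4.58 (0.11). The gene of the cluster in the bright group was thus lower and its neighbours higher on the combination array, all within 1.5-fold.

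MIR221 and MIR222, which are transcribed together on the X chromosome, also lay on opposite sides of 0, at -0.21 and 0.51. MIR130B lay at -0.36 by its brightest probe set (-0.15 by the mean of its probe sets) and MIR301B at 0.24. MIR449B, of a family known from multiciliated cells, lay at 0.40, and its neighbours MIR449A and MIR449C at -0.29 and -0.13. MIR4732 lay at 0.18, beside MIR451A at -0.62, MIR144 at -0.19 and MIR451B at -0.10; miR-451 and miR-144 are red cell microRNAs, and their signals here were 1.33 to 2.35.

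Other clusters leaned one way. MIR24-2, MIR27A and MIR23A lay at 0.02, 0.09 and 0.32. MIR99B, MIRLET7E and MIR125A lay at 0.25, 0.36 and 0.15. MIR98, a let-7 relative, lay at 0.27 and its neighbour MIRLET7F2 at 0.01.

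MIR502, in an X-linked cluster of 8 named genes, had 6.40 on the combination array and 6.35 on the romidepsin array. Its 7 dimmer neighbours ran from -1.41 (MIR501) to 0.59 (MIR532). On chromosome 14, MIR127 lay at 0.28 and MIR539 at 0.08, in 2 clusters more than 10 kb apart. MIR539 was 1 bright gene of 42 in its stretch, and the differences there ran from -0.36 to 0.74.

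The named genes of the proteins that make and use microRNAs all lay within 1.5-fold. Among the 5503 named genes at 5.55 or above only 0.545% were further apart, so this is near the share of named genes at large. Of 13 listed nuclear and 21 listed cytoplasmic genes, 15 were named on the array. Their median difference was 0.04, with 10 above 0 and 5 below. DGCR8, the RNA-binding partner of DROSHA, had 5.43 on the combination array and 5.57 on the romidepsin array (-0.13). XPO5, the exporter of hairpins, had 8.71 on the combination array and 8.67 on the romidepsin array (0.04).

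HNRNPA1, which binds the hairpin of some microRNAs and aids their processing, differed most, with 8.87 on the combination array and 8.55 on the romidepsin array (0.32). LIN28B, an inhibitor of let-7 maturation, had 2.84 on the combination array and 2.60 on the romidepsin array. TNRC6C, which links Argonaute to deadenylation, lay at 0.12 and SND1, a nuclease of the silencing complex, at 0.11. DIS3L2, an exonuclease that degrades uridylated let-7 precursors, lay at -0.08. DROSHA, DICER1 and AGO2 are not analysed here.

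Most bright microRNA genes lie inside another gene, and they were compared with it where it was named and known to share the strand. Of the 124 genes, 99 lie inside another gene of the RefSeq table. For 70 of them the sources used here place both on the same strand, and for 42 that host had a named probe set. The rest were left out because the strand was opposite or was not found. The strand was not found for MIR4737, the brightest gene, within HEATR6, nor for MIR570, MIR4518 and MIR548H2. The differences of these 42 microRNA genes had a median of 0.08 and those of their hosts 0.00, with 14 of the 42 pairs sharing the sign. The microRNA gene differed more than its host in 30 pairs. Of the hosts, 17 had a mean signal below 5.55, so hosts and microRNA genes were not matched in signal. No host reached 1.5-fold, and 2 of the microRNA genes did, MIR590 and MIR4489. Among the 5379 other named genes at 5.55 or above 0.372% were that far apart, so a lack of such hosts is near that share. Among all 124 bright microRNA genes the share was 8.06%. Across the 42 pairs the differences correlated with Pearson's r = -0.02 and Spearman's rho = -0.05, a description in which all points share the same 2 arrays.

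MIR590 lay at -0.71 while its host EIF4H had 8.99 on the combination array and 8.94 on the romidepsin array (0.05). MIR4489 lay at 0.60, and its host SIPA1, a Rap GTPase activator, had 5.51 on the combination array and 5.15 on the romidepsin array (0.37). MIR4453 and its host transcript MIR4453HG lay at -0.37 and -0.45. MIR3198-1 and its host BID, a pro-apoptotic BCL2 family gene, lay on opposite sides at -0.55 and 0.50. BID was dim, with 4.06 on the combination array and 3.56 on the romidepsin array.

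In some other pairs the host lay further from 0. NANOS3, the host of MIR181D, lay at 0.40, BCL7C, the host of MIR4519, at -0.45 and NOTCH1, the host of MIR4673, at -0.20. PCED1B, the host of MIR4698, lay at 0.38. The mean signals of NANOS3, BCL7C and PCED1B were 4.49, 5.17 and 3.31. In the pairs given next the difference of the host was within 0.13 of 0, which does not hold for every remaining pair. MIR21 lay at -0.06 and its host VMP1, an autophagy gene, at 0.13. MIR25 lay at -0.22 and MCM7 at -0.11, and MIR5047 lay at 0.19 and DDX5 at -0.04. MIR181B1 lay at 0.32, whereas its host transcript MIR181A1HG lay at -0.11. MIR378E lay at -0.42 and its host DOCK2, a guanine nucleotide exchange factor of lymphocytes, at 0.01. MIR4440 lay at 0.30, and its host HDAC4, a class IIa histone deacetylase, had the same value of 5.06 on both arrays.

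**Figure D4:**
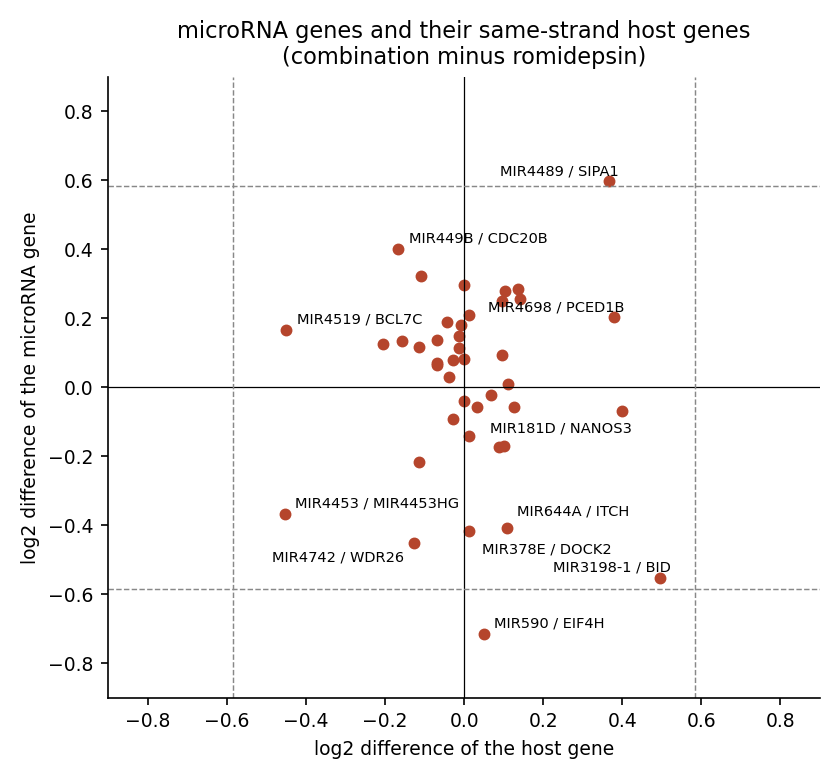
Log2 difference, combination minus romidepsin, of 42 bright microRNA genes (vertical axis) against that of the named gene on the same strand in which each lies (horizontal axis). MIR590 (-0.71, with EIF4H at 0.05) and MIR4489 (0.60, with SIPA1 at 0.37) pass the dashed 1.5-fold lines on the microRNA axis and no host passes them.

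The hairpins of the bright genes were richer in G and C than those of the dimmer microRNA genes, a property not used in the choice other than through signal. Hairpin sequences were found in RefSeq for 105 of the bright genes, with a median G and C content of 58.8% (quartiles 50.6% to 66.2%), and for 779 dimmer microRNA genes, with a median of 47.1% (quartiles 41.0% to 54.8%). A G and C content of at least 60% was found in 46.7% of the bright and 13.5% of the dimmer genes. The share of microRNA genes that reached 5.55 was 4.05% below 40% G and C and 42.4% at 70% or more. Median hairpin lengths were 80 bases for the bright and 83 for the dimmer genes. Over the 884 genes, G and C content and mean signal had a Spearman's rho of 0.60, a description in which all genes share the 2 arrays and in which probe sequence and hairpin composition go together.

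The difference between the arrays was also set beside composition. Over the 105 bright genes Spearman's rho of G and C content with the difference was 0.23 and Pearson's r was 0.34. Of the 7 bright genes under 40% G and C, 5 were lower on the combination array, and the median of the 7 was -0.41. Among those 5, MIR590 (5.42) and MIR4742 (5.50) were below 5.55 on the combination array and entered the group through the romidepsin array. Of the 35 genes between 60% and 70%, 28 were higher, and the median of the 35 was 0.20. Among those 28, MIR4489 (5.34) and MIR2392 (5.32) were below 5.55 on the romidepsin array and entered the group through the combination array. The order did not go on: the 14 genes at 70% or more had a median of 0.10, and the 19 between 40% and 50% and the 30 between 50% and 60% had medians of 0.12 and 0.14. Of the 166 dimmer microRNA genes under 40%, 82 were above 0 and 84 below, with a median of -0.00.

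Among the genes 1.5-fold apart, the lower ones had the lower contents. The 4 lower genes with a hairpin sequence had contents of 35.1% (MIR590), 37.1% (MIR570), 43.0% (MIR891A) and 50.6% (MIR1299). The 2 higher genes with one had 66.7% (MIR1281) and 66.1% (MIR4489). MIR590 and MIR891A entered the group through the romidepsin array and MIR4489 through the combination array, in each case the array where the gene is higher. This contrast is therefore a description and lends no support. The part of base composition in the differences of the bright genes was not tested.

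**Figure D5:**
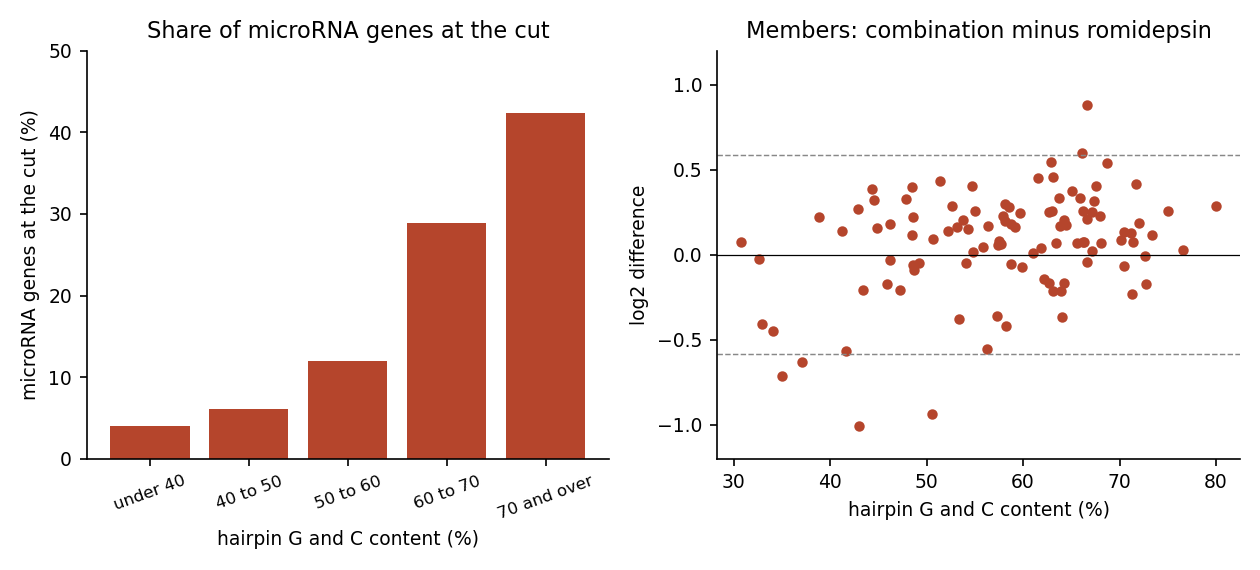
Left, share of the 884 microRNA genes with a known hairpin that reached a mean log2 signal of 5.55, by G and C content of the hairpin (4.05% below 40% and 42.4% at 70% and over). Right, log2 difference, combination minus romidepsin, of the 105 bright genes against the same content, where 5 of 7 genes below 40% lie under 0 and dashed lines mark 1.5-fold.

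The bright genes came from 22 chromosomes, with 10 each on chromosomes 1 and 17 and 9 on chromosome 11. Of them, 20 had more than 1 probe set, and for 5 of these another probe set held identical values. The 16 further probe sets with other values had the same sign of difference in 10 cases and reached 5.55 in 7. RefSeq lists a single mature strand for 61.3% of 111 bright genes and 51.5% of 868 dimmer ones.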

How the data were processed

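Per the labels' protocols, total RNA was turned into sense cDNA by whole-transcript amplification and biotin-labelled for a gene expression array. The deposited table holds log2 signals, 1 column per array. Its log base is not written and was taken as 2, since the maximum of 13.05 exceeds what natural logs of a 16-bit scan allow (11.1). The sources used here do not give the background correction and normalization. Sorted columns differed by at most 0.15, so a shift shared by most transcripts would not show. There are no detection calls, and the number of arrays limits the precision. The samples were assigned from their titles, the short form of the second drug being read as sildenafil, the only other drug of the protocol.

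Genes were named through the platform annotation (16098 probe sets named, 37519 not used here) and matched to RefSeq by Entrez identifier. The brightest probe set stood for a gene. Differences are combination minus romidepsin. Named were all genes at least 1.5-fold apart, the 12 brightest, the 12 with the largest difference, families, clusters and seed groups with at least 2 bright genes, 3 genes on each side of the limit, the lymphoid list, leading processing genes and hosts of named genes. Cluster neighbours and other host pairs were chosen after their values were seen. The members and lists were chosen with earlier results of these data known, among them that microRNA genes leaned slightly higher, so this lean is not independent support.

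Alternatives changed the scaling (median, quantile, lowess with span 0.3), the handling of several probe sets, the signal limit (5, 6, or the dimmer array), the fold (1.3 and 2) and, after seeing the data, the signal range. The code was tested on simulated data. Hairpin and mature sequences came from RefSeq (GRCh38.p14). No coordinates are given because the table names no genome build. Python 3.11.15, numpy 2.4.6, pandas 2.3.3, statsmodels 0.14.6 and matplotlib 3.10.9 were used.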

Additional observations from a re-analysis of the deposited data

How the results depend on the processing

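The group changed most with its own signal limit: at 5 it held 208 genes with 134 above 0 and 7 at least 1.5-fold higher, and at 6 it held 77 genes with 50 above 0 and 2 higher. Quantile normalization gave 7 genes higher, and the limit applied to the dimmer array gave 2. At 2-fold 0 genes were higher and 1 lower, and at 1.3-fold 15 were higher and 14 lower. Between 5.55 and 7, a range chosen after seeing the data, 3 genes were lower. The alternatives gave 113 values of 18 main results. Of these, 100 kept within 1.5 times the main count or within 0.16 of the main median, the SD over named genes, and 13 moved. Where a median is smaller than 0.16 this allowance is wider than the median itself, so keeping within it does not show that the median is stable. After median centring the median of MIR25 and MIR92B changed sign from 0.02 to -0.01. That of MIR5047 and MIR1301 changed from 0.02 to -0.004. The median difference of the bright microRNA genes stayed between 0.08 and 0.15. The mean of all probe sets moved MIR4521 to -0.39, MIR130B to -0.15 and MIR3689F to 0.28. MIR26B lay at 0.01 and, after median centring, at -0.02.

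No paired analysis was possible because each condition has 1 array, and no replicate was there to leave out. The limit is the number of arrays: culture, array and drug effects cannot be told apart. Signal over background is unknown because the table holds no background level. A microRNA gene's probe set does not separate mature, precursor and host RNA.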
